A study of Mus musculus with 9 samples.

Results

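The tendon progenitor genes considered here are Scx, Tnmd, Mkx and Thbs4. They were chosen by name, and all 4 were found by Ensembl identifier among the 43539 genes that had values and among the 18714 genes tested. RNAseq had been performed on 9 libraries of E14.5 mouse skull tissue. The MCAGF8 cranial vault came from embryos carrying Msx2-Cre and an activated CAG-Fgf8b allele, called CAGF8, at the R26 locus. Msx2-Cre is active in the surface ectoderm of the head, and the skin was peeled off before collection, although epidermal RNA was still measured in the libraries, as given at the end. The control cranial vault and the cartilaginous control cranial base came from embryos of the same cross that lacked Cre. The labels call these controls wildtype, whereas the breeding described by the study gives every embryo the unrecombined CAGF8 allele. The strain is given as mixed. Each group consisted of 9 samples, whose RNA was pooled by 3 to give 3 libraries, so a p-value here measures the spread between pools, not between single embryos. Vault and base tissue were taken in turn from the control embryos, so both control groups come from the same set of embryos, and which embryos went into which pool is not stated. The fit took the libraries as independent.

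Tendons join muscle to bone and arise from mesenchymal progenitors that are told apart early by the transcription factor gene Scx (scleraxis, of the basic helix-loop-helix class). Mkx (Mohawk) encodes an atypical homeodomain factor needed for full growth of collagen fibrils in tendon. Tnmd (tenomodulin) encodes a membrane glycoprotein of maturing tendon cells and acts downstream of Scx. Thbs4 (thrombospondin 4) encodes a secreted matrix protein that accumulates where muscle fibers attach to tendon. In the head, tendon cells derive from the neural crest. They can begin to form without muscle, whereas their later maturation depends on it. Similar fibrous cells occur in ligament, fascia, sutures and periosteum, so none of the 4 genes marks tendon alone.

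In the GRCm38 annotation, Scx (ENSMUSG00000034161) lies at chr15:76457452-76459458 on the plus strand, within the span of Bop1 on the opposite strand, with which it shares 0 exonic bases. Tnmd (ENSMUSG00000031250) lies at chrX:133850980-133865577 on the plus strand and has 1353 exonic bases in 7 blocks. Thbs4 (ENSMUSG00000021702) lies at chr13:92751590-92794818 on the minus strand and has 3289 exonic bases in 22 blocks. RefSeq promoter sequence was at hand for 2 of the 4 genes, Tnmd and Thbs4, the 2 genes that differed most from the control vault below. The 250 bases upstream of each start in RefSeq are shown, from 5′ to 3′ on the strand of the gene (GRCm38.p6), because Scx and other basic helix-loop-helix factors bind the E-box CANNTG. For Tnmd the RefSeq start lies inside the gene as annotated above, so the end of that window falls within its first exon. Capitals mark a match to CANNTG.
Tnmd (chrX:133850758-133851007, plus strand): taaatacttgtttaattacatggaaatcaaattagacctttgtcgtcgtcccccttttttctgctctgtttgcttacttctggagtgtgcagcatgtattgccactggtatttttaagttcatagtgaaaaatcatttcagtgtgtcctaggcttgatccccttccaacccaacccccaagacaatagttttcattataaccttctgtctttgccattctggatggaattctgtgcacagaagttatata
Thbs4 (chr13:92794819-92795068, minus strand): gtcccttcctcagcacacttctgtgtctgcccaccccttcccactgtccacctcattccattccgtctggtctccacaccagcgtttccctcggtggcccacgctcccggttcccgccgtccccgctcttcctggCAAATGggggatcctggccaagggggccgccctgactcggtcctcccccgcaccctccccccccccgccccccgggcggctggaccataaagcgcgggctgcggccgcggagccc
The Tnmd window had 38.4% G and C, the Thbs4 window 70.8%, and the median over all 32851 windows was 52.4%. No CANNTG was present in the Tnmd window, and 1 was present in the Thbs4 window, starting 115 bases before the start. The motif reads the same on both strands by its pattern, and 66.2% of all windows held at least 1. Neither window held CAGCTG (13% of windows), CATCTG or its reverse complement CAGATG (14.4%), or TATAAA on either strand (12.4%). A match is only a run of letters, and binding was not measured.

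Expression was deposited as FPKM, a fragment count scaled to transcript length and library size, which allows levels of different genes to be compared. Differences are given on the log2(FPKM + 1) scale, which understates the change of low genes, with the standard error (SE) and the 95% interval from limma fitted to all 18714 genes whose FPKM averaged 0.5 or more. A gene was called changed where its p was under 0.05 before and under 0.1 after Benjamini-Hochberg adjustment over all genes tested. Group values are mean ± SD of 3 libraries, and each list of values follows replicates 1, 2 and 3. FPKM summed to between 793249 and 1315981 per library. Libraries of the control base were less alike (r of 0.964 to 0.979 across genes) than those of the MCAGF8 vault (0.983 to 0.992) or the control vault (0.988 to 0.989). The summed FPKM of 14 cartilage genes was 1214, 10750 and 1682 in the control base, so 1 of these 3 libraries carried most of the cartilage signal. In the other two it was below the 2908, 4836 and 5339 of the MCAGF8 vault and the 2197, 3083 and 2122 of the control vault. The hyaline cartilage collagen Col2a1 followed the same order, at 163, 2292 and 268 FPKM in the control base. The base libraries were therefore not equally cartilage-rich as labelled, and values without base replicate 2 are given where it bears on a result. In bulk tissue, fewer tendon cells and less RNA per tendon cell cannot be told apart.

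Whether the vault of the MCAGF8 embryos kept the tendon progenitor genes of a normal vault was asked first. Thbs4 was lower in the MCAGF8 vault, by 4.999-fold in mean FPKM, and it was the only one of the 4 genes called in this comparison. Tnmd was 3.61-fold and Mkx 1.78-fold lower in mean FPKM without passing the threshold, and Scx overlapped between the groups. Over all genes, 0.604% were called (0.374% as lower). The libraries of 3 of the 4 genes did not overlap, each lower in the MCAGF8 vault, against 9.35% of all genes that did not overlap in this direction and 9.90% in the other. The median log2 difference of the 4 genes was -1.32, beside -0.009 over all genes tested.

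**Figure D1:**
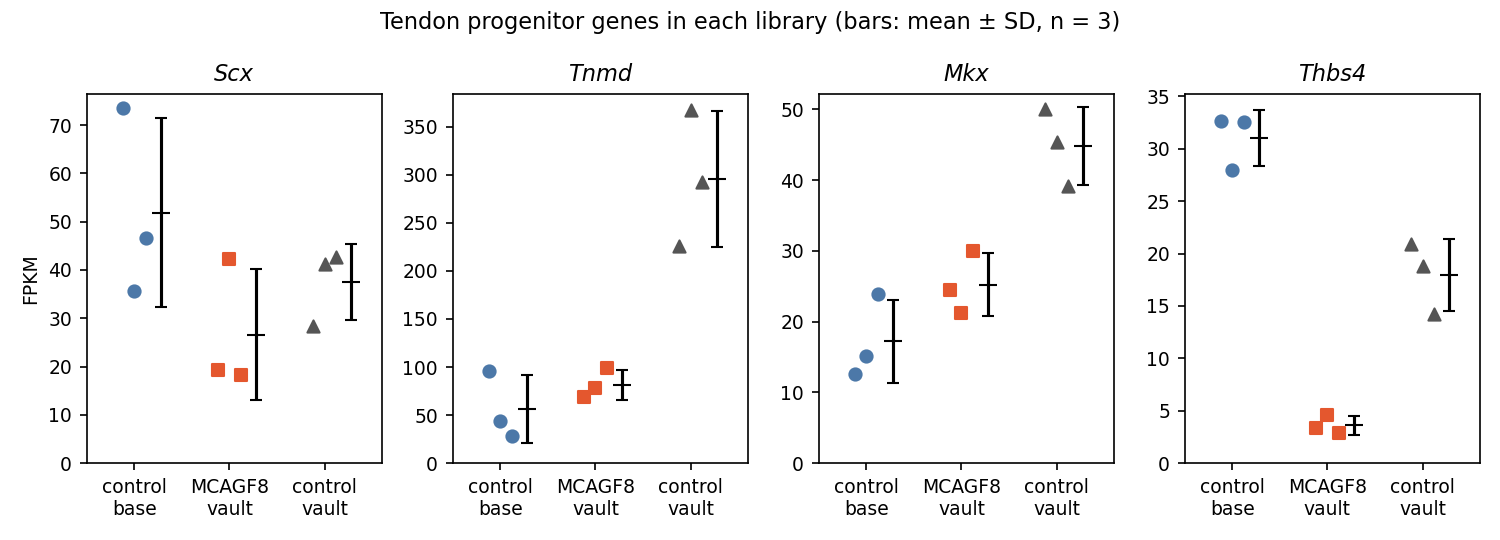
FPKM of Scx, Tnmd, Mkx and Thbs4 in each library of the control base, the MCAGF8 vault and the control vault, with linear axes that start at 0; points are libraries, and bars show mean ± SD of 3. Thbs4 in the MCAGF8 vault (2.87 to 4.58) lies below every control library, Tnmd and Mkx are highest in the control vault, and Scx overlaps in all 3 groups.

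Thbs4 was at 3.34, 4.58 and 2.87 FPKM in the MCAGF8 vault and at 20.9, 18.8 and 14.2 in the control vault. Every MCAGF8 library was below every control library, with means of 3.596 ± 0.884 and 17.975 ± 3.45. The log2 difference was -2.05 (SE 0.22, 95% interval -2.54 to -1.56, adjusted p 0.0146), and 0.7% of all tested genes had a lower one. In the level ranking, Thbs4 stood above 56.9% of tested genes in the control vault and above 28.4% in the MCAGF8 vault. The call held when any single library was left out (-2.20 to -1.93) and was lost in a linear model without moderation of the variances (adjusted p 0.134). That model called 0 of all 18714 genes between the vaults.

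Tnmd was the most abundant of the 4 genes in both vaults. It was at 68.5, 77.8 and 99.0 FPKM in the MCAGF8 vault and at 226, 367 and 293 in the control vault. The highest MCAGF8 library was below the lowest control library, and the means were 81.8 ± 15.7 and 295 ± 70.5. The log2 difference was -1.83 (SE 0.39, 95% interval -2.70 to -0.96), with an unadjusted p of 0.000959 and an adjusted p of 0.127, so it was not called. An unadjusted p under 0.05 was reached by 3 of the 4 genes here, Thbs4, Tnmd and Mkx, and by 6.34% of all genes. It was called when base replicate 1, 2 or 3 was left out (adjusted p 0.0632, 0.0888 and 0.0982 at the same difference) and in a fit to the 6 vault libraries alone (adjusted p 0.0409).

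Mkx (ENSMUSG00000061013) lies at chr18:6934518-7004780 on the minus strand and has 8 exonic blocks, with 201 exonic bases shared with a gene on the same strand that was not analysed here. It was at 24.4, 21.2 and 30.04 FPKM in the MCAGF8 vault and at 50.02, 45.3 and 39.1 in the control vault. These libraries did not overlap either, and the means were 25.2 ± 4.46 and 44.8 ± 5.46. The log2 difference was -0.81 (SE 0.25, 95% interval -1.36 to -0.26, unadjusted p 0.00843, adjusted p 0.369), which was not called. Of the 18714 genes, 3.4% had a lower difference, compared with 0.9% for Tnmd. After rescaling the libraries to equal sums, the log2 difference of Mkx was -0.64, with an unadjusted limma p of 0.0776 in place of 0.00843. Overlap of libraries was judged on FPKM as deposited, without rescaling.

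Scx, the earliest marker of the tendon lineage, was at 19.2, 42.3 and 18.3 FPKM in the MCAGF8 vault and at 28.5, 41.3 and 42.7 in the control vault. MCAGF8 replicate 2 stood at the level of the highest control libraries, and the other two stood below all controls. The means were 26.6 ± 13.6 and 37.5 ± 7.83, with a log2 difference of -0.56 (SE 0.36, 95% interval -1.37 to 0.25, adjusted p 0.969). The interval reaches from a fall larger than that of Mkx to a small rise, so these libraries do not settle the direction for Scx. Bop1, within whose span Scx lies, was at 31.8 to 40.9 FPKM in the MCAGF8 vault and at 33.0 to 44.9 in the control vault (log2 difference -0.11, adjusted p 0.979). Whether strand was used in counting is not stated.

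The comparison with the control cranial base set the cartilage-forming MCAGF8 vault beside a skull region that normally forms cartilage. Thbs4 was again lower in the MCAGF8 vault, by 8.63-fold, and was again the only one of the 4 genes called, with 8.39% of all genes called (5.41% as lower). It was at 32.6, 27.95 and 32.6 FPKM in the control base, so all base libraries exceeded all MCAGF8 libraries, and the base mean was 31.0 ± 2.67. The log2 difference was -2.82 (SE 0.22, 95% interval -3.31 to -2.33, adjusted p 0.000559). Its call held under all 17 alternatives run, with adjusted p from 0.000344 to 0.00985. Thbs4 was the only one of the 4 whose libraries did not overlap, against 13.0% of all genes not overlapping in this direction and 8.91% in the other. An unadjusted p under 0.05 was reached by 3 of the 4 genes, all but Tnmd, and by 19.6% of all genes.

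Scx was at 73.5, 35.6 and 46.6 FPKM in the control base, with a mean of 51.9 ± 19.5, its highest of the 3 groups. The MCAGF8 vault overlapped it through MCAGF8 replicate 2, and the log2 difference was -0.98 (SE 0.36, 95% interval -1.79 to -0.17, adjusted p 0.172). The difference was called as lower in the MCAGF8 vault without base replicate 2 (-1.21, adjusted p 0.055) or without MCAGF8 replicate 2 (-1.36, adjusted p 0.0704). The first of these fits called 4561 of 18624 genes and the second 768 of 18783. With all libraries 1571 of 18714 were called.

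Tnmd and Mkx had positive differences here. Tnmd was at 96.4, 43.9 and 28.7 FPKM in the control base (56.3 ± 35.5), a range that takes in 2 of the 3 MCAGF8 values. Its log2 difference was 0.69 (SE 0.39, 95% interval -0.18 to 1.57, adjusted p 0.366), and without base replicate 1, the highest, it was 1.17 and called (adjusted p 0.0559). Mkx was at 12.6, 15.2 and 23.9 FPKM in the control base (17.2 ± 5.90), and base replicate 3 overlapped the MCAGF8 libraries. Its log2 difference was 0.56 (SE 0.25, 95% interval 0.01 to 1.11, adjusted p 0.249), and without base replicate 3 it was 0.81 and called (adjusted p 0.0856). The median over the 4 genes was -0.21, beside -0.066 over all genes, since Scx and Thbs4 stood on one side of 0 and Tnmd and Mkx on the other.

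Between the control tissues, which share no Fgf8b activation, 2 of the 4 genes were called, Tnmd and Mkx, both lower in the base, with 3.06% of all genes called (1.21% as lower). Tnmd was 5.25-fold lower in the base, at 28.7 to 96.4 FPKM against 226 to 367 in the vault, and the groups did not overlap. The log2 difference was -2.52 (SE 0.39, 95% interval -3.40 to -1.65, adjusted p 0.0164), and 0.1% of all genes had a lower one. Mkx was 2.603-fold lower in the base, at 12.6 to 23.9 FPKM against 39.1 to 50.02, again without overlap. Its log2 difference was -1.37 (SE 0.25, 95% interval -1.92 to -0.82, adjusted p 0.0305). Without control vault replicate 1, 2 or 3, the difference of Mkx was -1.29, -1.36 and -1.46 and no longer called (adjusted p 0.129, 0.115 and 0.101). Without base replicate 2, the cartilage-rich library, both calls held, at -2.44 for Tnmd (adjusted p 0.0189) and -1.31 for Mkx (adjusted p 0.0344). In a fit to the 6 control libraries alone neither was called (adjusted p 0.101 for Tnmd and 0.125 for Mkx).

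Thbs4 ran the other way. The base libraries, at 27.95 to 32.6 FPKM, were all above the control vault libraries, at 14.2 to 20.9, a 1.73-fold higher mean. The log2 difference of 0.77 (SE 0.22, 95% interval 0.28 to 1.26, unadjusted p 0.00596, adjusted p 0.136) was not called. Scx differed by 0.42 (SE 0.36, 95% interval -0.39 to 1.23, adjusted p 0.788) with overlapping libraries. Thus 2 of the 4 genes did not overlap as lower in the base and 1 as higher, against 6.69% and 8.86% of all genes, respectively.

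**Figure D2:**
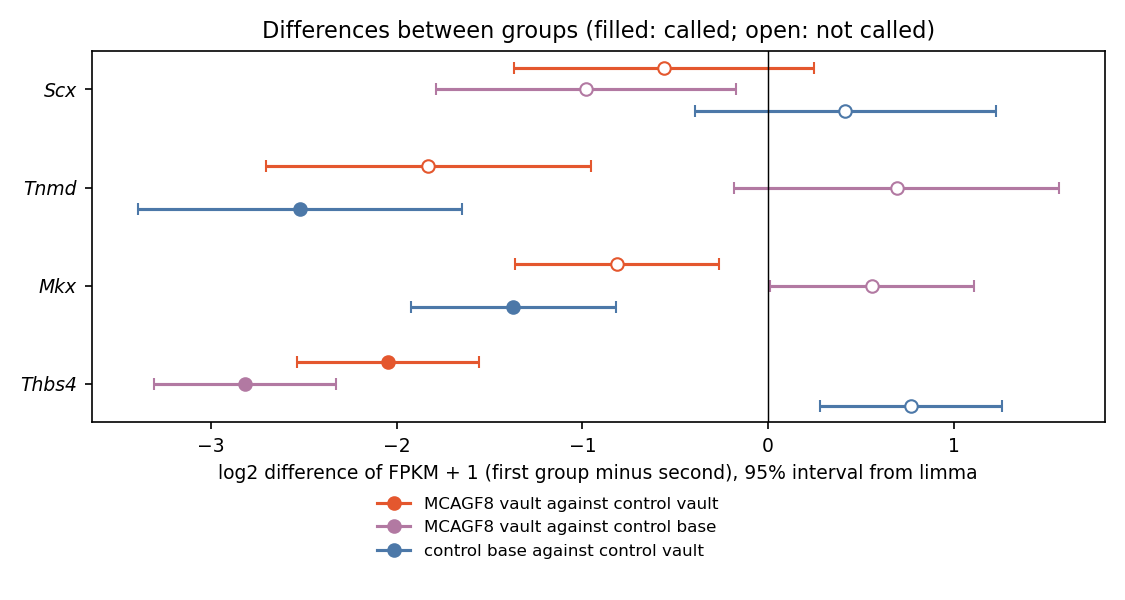
Differences of Scx, Tnmd, Mkx and Thbs4 on the log2(FPKM + 1) scale, first group minus second, in the 3 comparisons; horizontal bars are 95% intervals from limma, filled circles are called and open circles are not. The intervals of Thbs4 against both controls (-2.54 to -1.56 and -3.31 to -2.33) lie wholly below 0, while those of Scx against the control vault, Scx between the controls and Tnmd against the base cross 0.

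Each pair of comparisons shares a group, so the plot of differences shows them side by side and no likeness between them was tested. In order of mean FPKM, Tnmd and Mkx were highest in the control vault, then in the MCAGF8 vault and lowest in the control base. For both, the MCAGF8 vault and the base overlapped, and the 2 vaults did not overlap but their difference was not called. Thbs4 was highest in the base, then in the control vault and lowest in the MCAGF8 vault, and of these neighbors only the 2 vaults differed by the threshold. For Scx the order of base, control vault and MCAGF8 vault had no neighbors that differed beyond their spread.

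The 4 genes therefore stood in different proportions in the 3 tissues. The ratio of Tnmd to Scx within a library, chosen after the values were seen and not tested, was 1.31, 1.23 and 0.615 in the control base, 3.56, 1.84 and 5.41 in the MCAGF8 vault, and 7.95, 8.90 and 6.85 in the control vault. The 3 groups did not overlap in this ratio, although Scx alone overlapped in all of them. The ratio of Thbs4 to Scx was 0.444, 0.786 and 0.698 in the base and 0.735, 0.456 and 0.332 in the control vault, and all MCAGF8 libraries, at 0.108 to 0.174, were below both. Mkx to Scx was 0.172 to 0.512 in the base, 0.501 to 1.64 in the MCAGF8 vault and 0.916 to 1.76 in the control vault, with overlap of neighboring groups. Over the 9 libraries, the Pearson r of log2(FPKM + 1) was 0.72 for Scx with Thbs4 and for Tnmd with Mkx. After removal of the group means it was 0.43 and -0.64. The negative value did not hold in every group. In the base, Tnmd was at 96.4, 43.9 and 28.7 FPKM and Mkx at 12.6, 15.2 and 23.9. In the control vault, replicate 1 had the least Tnmd and the most Mkx. In the MCAGF8 vault, replicate 3 had the most of both. These correlations are descriptions over libraries that share group and scaling.

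Genes whose levels followed each gene most closely were listed by Pearson r over the 9 libraries among the 12882 genes averaging 5 FPKM or more, and part of each r is the difference between groups. For Tnmd these were Cthrc1 (r 0.980), Tnfrsf23 (0.952), Ccn3 (0.945), Gspt1 (0.943) and Itgbl1 (0.919). Ccn3, a matricellular protein gene, was at a mean of 30.8 FPKM in the base, 37.6 in the MCAGF8 vault and 134.9 in the control vault. For Mkx the list was Epb41l2 (0.958), Pabpc4 (0.948), Pcolce (0.925), Itgb3 (0.915) and Cercam (0.908). Pcolce, whose product enhances the processing of fibrillar procollagen, was at 157, 293 and 503 in the same order of groups.

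Thbs4 was followed most closely by Rxrg (0.974), Fndc3c1 (0.962), Slc35g1 (0.962), Myo5b (0.956) and Dcx (0.954). Rxrg, which encodes a retinoid X receptor, was at 10.49 FPKM in the base, 0.921 in the MCAGF8 vault and 5.39 in the control vault, the same order as Thbs4. Dcx, a gene of young neurons, was at 21.0, 0.456 and 6.99. The 7 neural genes measured, Dcx among them, summed to 241, 178 and 614 FPKM in the base, 54.3, 75.2 and 38.2 in the MCAGF8 vault and 76.5, 22.3 and 57.7 in the control vault, so the base libraries carried neural RNA. Of the 7, 6 were called as lower in the MCAGF8 vault than in the base (median -3.17) and 1 as lower than in the control vault, and Neurod1 was at 0 in MCAGF8 replicate 2. The part of neural RNA in the values of Thbs4 was not tested. The genes closest to Scx were Gm20545 (0.977), Gm1848 (0.973), Cgrrf1 (0.973), Gm18432 (0.971) and Gm12094 (0.968), most of them predicted genes without a known role. By deviation from the group means, the closest was Id1 for Scx (0.992), 4921524J17Rik for Tnmd (0.984), Plekha4 for Mkx (0.971) and Gm6651 for Thbs4 (0.925), so none of the leading genes by levels led here.

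Signals and factors that act on tendon formation were taken from a list of 23 genes, of which 22 were tested. Against the control vault 1 was called, Mstn, which encodes a secreted inhibitor made by muscle and known to influence tendon, at a mean of 0.281 FPKM in the MCAGF8 vault and 5.48 in the control vault (-2.33, adjusted p 0.0494). That call was lost when MCAGF8 replicate 1 or 2, or else control vault replicate 1 or 3, was omitted (adjusted p 0.261, 0.207, 0.147 and 0.173). Egr1, a factor that can induce Scx, was at 11.6 ± 3.63 and 12.9 ± 2.84 FPKM (-0.16, adjusted p 0.978). After rescaling the libraries to equal sums, the log2 difference of Egr1 was 0.0020. Tgfb3, a ligand of the pathway that recruits tendon progenitors, was at 109 and 89.1 (0.27, adjusted p 0.969). Etv4, a target of FGF signaling, was at 16.4, 20.2 and 17.2 FPKM in the MCAGF8 vault and 10.4, 8.33 and 6.43 in the control vault, without overlap and not called (1.03, adjusted p 0.163).

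Against the control base 8 of the 22 were called, 4 higher and 4 lower in the MCAGF8 vault, beside 2.98% and 5.41% of all genes. The higher genes were Smad3 (1.20), which encodes a transducer of TGFβ signals, Tgfbr2 (0.97), a TGFβ receptor gene, Bmp4 (0.94) and Osr1 (1.19), a factor of fibrous connective tissue. The call of Osr1 was lost without base replicate 1, MCAGF8 replicate 1, MCAGF8 replicate 2 or any one control vault library (adjusted p 0.116 to 0.237). The lower genes included Foxf2 (-3.72, adjusted p 0.00251), Tppp3 (-3.22, adjusted p 0.0113), a marker of tendon sheath cells, and Gdf5 (-1.65), a joint and ligament signal whose call was lost without MCAGF8 replicate 1 (adjusted p 0.118). Mstn was the other lower gene (-2.50). Tppp3 was at 223, 84.6 and 341 FPKM in the base, 17.0, 21.3 and 19.3 in the MCAGF8 vault and 38.7, 123 and 46.2 in the control vault, so that all MCAGF8 libraries were below all others, as for Thbs4. The difference between the vaults was not called (-1.61, adjusted p 0.450). Between the control tissues 3 were called, Foxf2 (3.61), Gdf5 (1.52) and Etv4 (1.32), all higher in the base, as were 1.85% of all genes. Without control vault replicate 2 or 3 this count was 1, and without base replicate 2 it was 5. Over all genes these fits called 219, 130 and 1335, in place of 573 with all libraries.

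The matrix that tendon cells lay down was examined with 31 genes, many of which are shared with bone, dermis and other fibrous tissue. Of these, 0 were called between the MCAGF8 and control vaults by limma. Only 0.604% of all genes were called there, so a count of 0 is near that share. By limma 0 of the 31 had an unadjusted p under 0.05, beside 6.34% of all genes. Without moderation 1 had an unadjusted p under 0.05. That fit called 0 of all 18714 genes, so its 0 calls for this list carry no weight. The median was 0.10, with 17 genes at higher and 14 at lower values. Their summed FPKM was 15626 to 16482 in the MCAGF8 vault and 15982 to 17091 in the control vault, where Thbs4 differed by 4.999-fold. Fmod (fibromodulin, a regulator of collagen fibril width) was at 152 ± 18.4 and 206 ± 22.3 FPKM (-0.43, adjusted p 0.897).

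Against the control base, 18 of the 31 were called, with 15 up (as were 2.98% of all genes) and 3 down in the MCAGF8 vault and a median of 0.97. Fmod differed by 2.05 (adjusted p 0.00291) from the 36.8 ± 10.7 FPKM of the base. The type I collagen genes Col1a1 (1.82) and Col1a2 (1.91), Thbs2 (1.74) and Tnc (1.46), which encodes tenascin C, were also higher. The 3 lower genes were Comp (-3.03, adjusted p 0.0653), Cilp (-1.79, adjusted p 0.0280) and Prg4 (-1.54, adjusted p 0.0359), matrix genes shared by tendon, ligament and joint surfaces. Without MCAGF8 replicate 1 the calls of Comp and Cilp were lost (adjusted p 0.233 and 0.124), as was that of Comp without MCAGF8 replicate 2 (adjusted p 0.186) and that of Prg4 without MCAGF8 replicate 2 or 3 (adjusted p 0.119 and 0.118). Between the control tissues 14 were called, all lower in the base, among them Fmod (-2.48), Col1a1 (-2.30) and Thbs2 (-1.83). This count was 6, 7 and 6 without control vault replicate 1, 2 and 3, and 3 in a fit to the 6 control libraries alone. The summed FPKM of the list was lowest in the base (6348 to 7692), as were Tnmd and Mkx and unlike Thbs4.

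**Figure D3:**
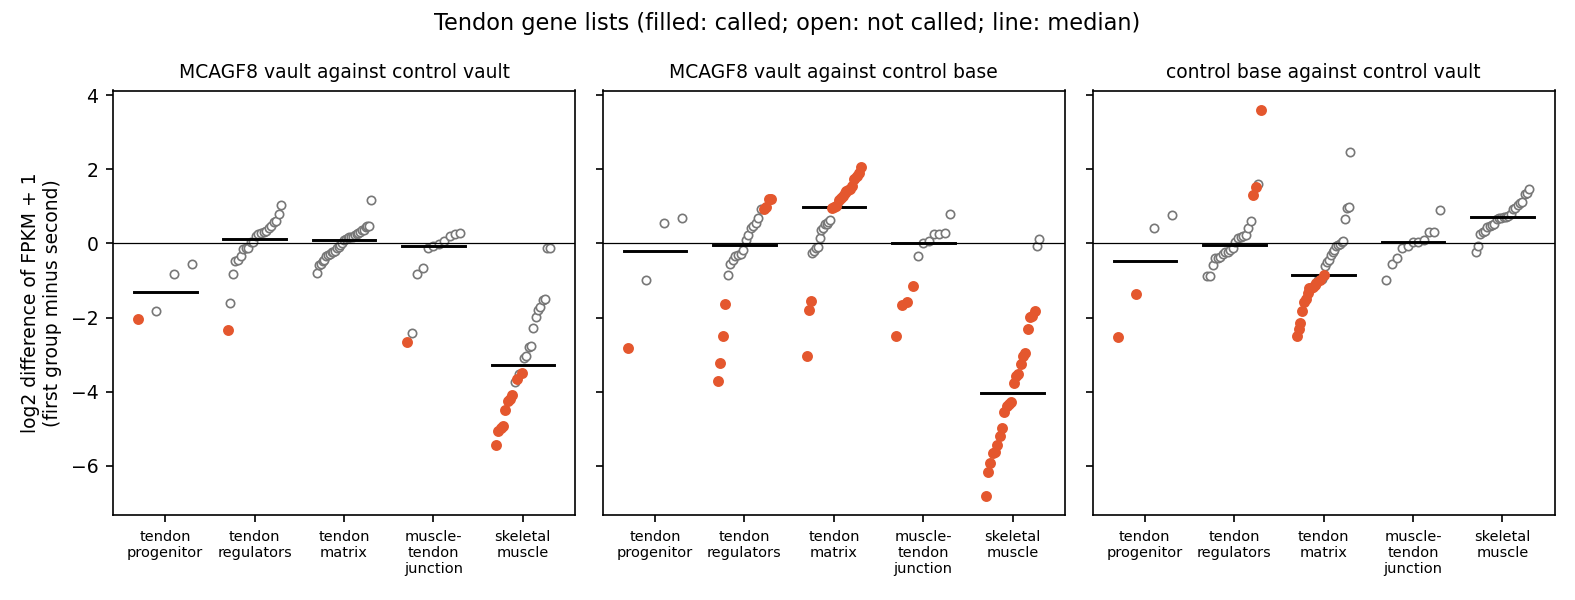
Log2 differences of FPKM + 1, first group minus second, for the tendon progenitor genes, tendon regulators, tendon matrix genes, genes of the muscle-tendon junction and skeletal muscle genes in the 3 comparisons; each circle is a gene (filled, called; open, not called) and each line is the median of the list. Between the vaults the matrix genes sit around 0 (median 0.10) while the muscle genes have a median of -3.29.

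Thbs4 is richest where muscle meets tendon, so 11 genes of that junction were listed. Against the control vault 1 was called, Col22a1, which encodes a collagen of the junction, at 0.932, 3.15 and 1.02 FPKM in the MCAGF8 vault and 19.2, 9.75 and 18.1 in the control vault (-2.67, adjusted p 0.0768). That call was lost when any one MCAGF8 library or control vault replicate 1 or 3 was left out (adjusted p 0.146 to 0.346). Against the base 4 were called, all lower in the MCAGF8 vault, namely Sgca (-2.51, adjusted p 0.0254), Col22a1 (-1.67), Itga7 (-1.59) and Nrap (-1.14), and omitting MCAGF8 replicate 1 left 0 of them, while omitting MCAGF8 replicate 3 or base replicate 3 left 1. With MCAGF8 replicate 2, control vault replicate 1 or control vault replicate 3 omitted, 2 were left. Between the controls 0 were called by limma, 1 had an unadjusted p under 0.05, and without moderation 0 had one.

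As a sum, skeletal muscle genes were lower in the MCAGF8 vault than in both control groups, as Thbs4 was. The summed FPKM of 24 muscle genes was 12946, 2241 and 5710 in the control base, 73.2, 103 and 307 in the MCAGF8 vault and 1186, 7131 and 1919 in the control vault, so all MCAGF8 libraries were below all others. Of the 24, 10 were called against the control vault and 22 against the base, all as lower in the MCAGF8 vault, with medians of -3.29 and -4.03. Over all genes 0.374% and 5.41% were called as lower. Pax7 and Myh8 overlapped in all groups, at means of 2.44 and 23.3 FPKM in the base, 2.49 and 25.3 in the MCAGF8 vault and 2.70 and 33.3 in the control vault. Myh8 made up 32.0 of the 73.2 FPKM in MCAGF8 replicate 1. The count against the control vault rested on single libraries, being 17 without base replicate 2, 4 without base replicate 1, 1 without control vault replicate 2, and 0 without base replicate 3, MCAGF8 replicate 1, MCAGF8 replicate 2, control vault replicate 1 or control vault replicate 3. Against the base it was 16 to 22 with a library left out and 12 without moderation. Myf6 was at 0 in MCAGF8 replicate 1 and no other muscle gene was at 0 in any library, so muscle RNA was reduced there and not absent. Between the control tissues none of the 24 was called by limma, 0 had an unadjusted p under 0.05 (12.8% of all genes had one), and the fit without moderation gave 0 as well.

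Among the control libraries Thbs4 varied over a narrower range than the muscle genes. In the base, Thbs4 was lowest in the library with the least muscle RNA, at 27.95 FPKM, and 32.6 in both others. In the control vault the muscle sum ranged from 1186 to 7131 and Thbs4 from 14.2 to 20.9 FPKM, with the highest Thbs4 in the library with the least muscle RNA. Base replicate 2 had less muscle RNA than vault replicate 2 (2241 and 7131) and more Thbs4 (27.95 and 18.8 FPKM). Tnmd in the MCAGF8 vault was above 2 of the 3 base libraries, which held more muscle RNA. Within each vault group Tnmd followed the order of the muscle sum. It was at 68.5, 77.8 and 99.0 FPKM for sums of 73.2, 103 and 307 in the MCAGF8 vault. In the control vault it was at 226, 367 and 293 FPKM for sums of 1186, 7131 and 1919. In the base, replicate 1 had the most of both, but replicate 3 had more muscle RNA than replicate 2 and less Tnmd. The part of muscle in the lower Thbs4 and Tnmd of the MCAGF8 vault was not tested. No MCAGF8 library reached the muscle level of any control library.

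**Figure D4:**
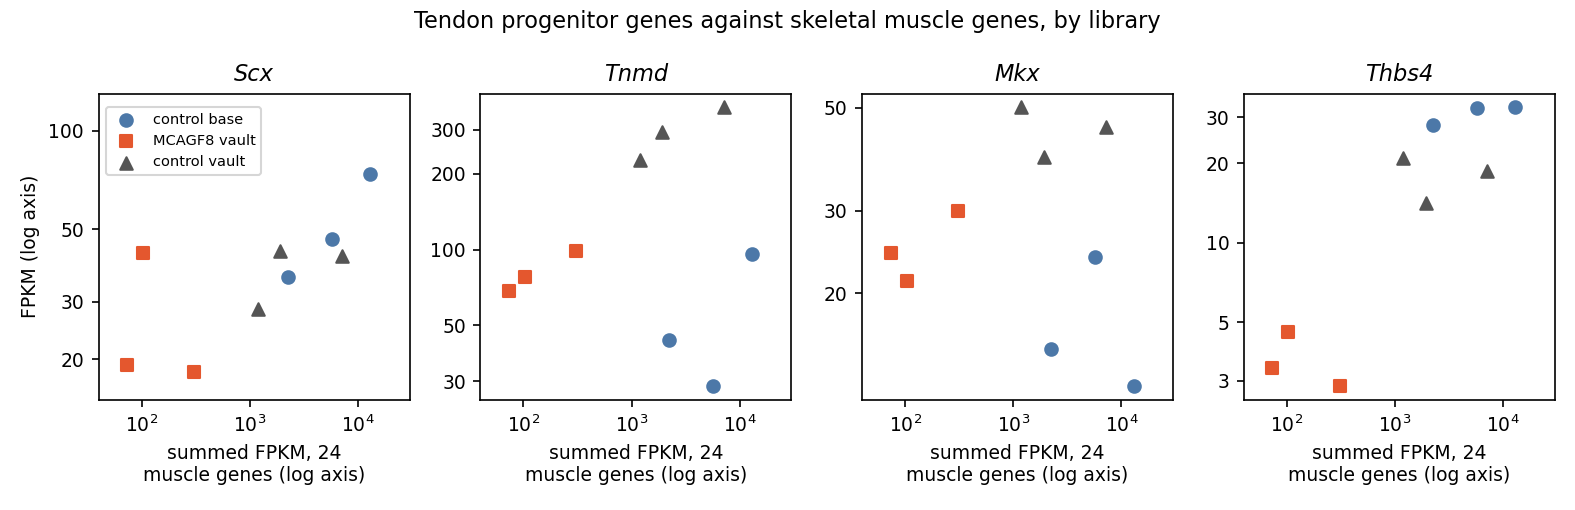
FPKM of each of the 4 genes against the summed FPKM of 24 skeletal muscle genes, both on log axes, with 1 point per library and a marker per group. The MCAGF8 libraries lie at the left (73.2 to 307) in every panel, and in the Thbs4 panel the control vault points lie between 14.2 and 20.9 over muscle sums from 1186 to 7131.

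Bone and skin genes also differed between the groups. The summed FPKM of 11 bone genes was 496, 504 and 1384 in the base, 163, 290 and 143 in the MCAGF8 vault and 3168, 1379 and 3386 in the control vault, the tissue in which Tnmd and Mkx were highest. Bglap2 was at 0 in all 3 MCAGF8 libraries and in base replicate 2. Within the control vault the library with the lowest bone sum, replicate 2, had the highest Tnmd, at 367 FPKM. The sum of 12 epidermis genes was 459, 421 and 1057 in the MCAGF8 vault and 51.0, 117 and 34.6 in the control vault, although the skin had been removed from both, and it was 558, 119 and 761 in the base. None of these 12 was at 0 in any library. The part of bone or skin RNA in the values of the 4 genes was not tested.

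Relatives of the 4 genes were compared to see whether the differences were shared within a family. Between the vaults, the log2 differences of Thbs1, Thbs2 and Thbs3 were 0.53, -0.09 and 0.28, beside -2.05 for Thbs4. That of Comp was -0.56 and ranged from -1.25 to -0.04 with a library left out, so its size is not settled. In the order base, MCAGF8 vault and control vault, Thbs1 was at means of 90.6, 262 and 183 FPKM, Thbs2 at 123, 407 and 430, Thbs3 at 114, 137 and 114, and Comp, the fifth thrombospondin, at 33.5, 2.63 and 3.50. None of these was called between the vaults (adjusted p 0.969 for Thbs1 and Thbs3, 0.986 for Thbs2, 0.976 for Comp). Against the base, Comp was called as lower in the MCAGF8 vault, as was Thbs4, and Thbs1 and Thbs2 were called as higher. The call of Comp was lost without MCAGF8 replicate 1 or 2. That of Thbs1 was lost without base replicate 1 or 3 or any one MCAGF8 library. The base means of Comp and Thbs1 were raised by the cartilage-rich base replicate 2, with Comp at 11.025, 77.5 and 11.9 FPKM and Thbs1 at 38.9, 176 and 56.9, whereas Thbs4 was even across the base. Without that library the difference of Comp from the MCAGF8 vault was -2.15 in place of -3.03. Cnmd, which encodes chondromodulin of cartilage and is the closest relative of Tnmd, was at 287, 1641 and 231 FPKM in the base, 417, 575 and 814 in the MCAGF8 vault and 365, 627 and 350 in the control vault. It overlapped in all groups and was not called between the vaults (0.43, adjusted p 0.977), whereas Tnmd was highest in the control vault.

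Of other basic helix-loop-helix genes, Tcf15 was at means of 5.76, 2.66 and 4.59 FPKM in the same order and was called in no comparison. Twist2 was at 109 in the MCAGF8 vault and 34.985 in the control vault, without overlap and not called (1.62, adjusted p 0.110; called without base replicate 1 or 2, adjusted p 0.0754 and 0.0132), and was called as higher than in the base (1.97, adjusted p 0.0117). Msc, a gene of head muscle progenitors, was at 3.29 in the MCAGF8 vault and 21.7 in the control vault (-2.47, adjusted p 0.238). Among homeobox genes of the class of Mkx, 2 were called as higher in the MCAGF8 vault than in the control vault, as were 0.230% of all genes. Irx4 was at 5.997, 4.46 and 5.20 FPKM in the MCAGF8 vault and at 0.0267, 0.634 and 0.0221 in the control vault (2.37, adjusted p 0.0146). Irx6 was at means of 2.53 and 0.154 (1.55, adjusted p 0.0768), and its call was lost without any one library of the vaults, base replicate 1 or base replicate 3 (adjusted p 0.111 to 0.262).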

How the data were processed

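RNAseq was available for 9 libraries, 3 per group, and groups and replicate numbers were taken from the sample titles. The authors prepared stranded mRNA libraries, aligned single-end reads by gSNAP and computed FPKM by Cufflinks, which they deposited in 1 table with a row per Ensembl identifier. The sources used here give no program versions, genome build, annotation release or use of strand, so positions are those of the GRCm38 gene annotation and promoter sequences those of RefSeq GRCm38.p6. Identifiers were matched to symbols by Ensembl number.

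Of 43611 rows, the 63 that repeated an identifier were summed into 43548, and 9 genes with the placeholder 999999999 (17 cells) were left out. The 18714 genes averaging 0.5 FPKM or more were taken as log2(FPKM + 1) and fitted by limma (version 3.58.1, R 4.3.3; lmFit, contrasts.fit and trended eBayes) to all 9 libraries with a mean for each group and two-sided tests. The study itself used ANOVA. Fold values are ratios of mean FPKM. The fit was tested on simulated data. Read depth is unknown, so no counting interval is given, and precision rests on 3 pools. The alternatives were a pseudocount of 0.1, quantile normalization, no filter, a filter at a mean FPKM of 5, libraries rescaled to sum to 1000000, only the 6 libraries compared, a replicate block, no moderation, and each library left out. For list counts and other genes they were added after the data were seen.

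The genes and lists were chosen with earlier results of these data known. Lists were written from general knowledge and some genes stand in more than 1. Genes named are the 4 genes, their structural families, at most 5 called genes of a list with the largest differences or, with none called, 3 abundant ones, and the 5 most alike in level. Etv4, Tgfb3, Egr1, Ccn3, Pcolce, Rxrg and Dcx were described in more detail after their values were seen, and Tgfbr2, Bmp4, Osr1, Tnc and Prg4 were named beyond the 5 after their values were seen. Lists for dermis, meninges, neural tissue, endothelium, macrophages and housekeeping were also counted, and between the vaults 1 of 10, 0 of 7, 1 of 7, 0 of 6, 0 of 6 and 0 of 8 genes were called. For cartilage, bone and epidermis these counts were 0 of 14, 7 of 11 and 3 of 12.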

Additional observations from a re-analysis of the deposited data

How the results depend on the processing

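Each value of the 4 genes was recomputed under 17 alternatives. Between the vaults, 1 of the 4 genes was called, and 2 were called with a pseudocount of 0.1 (Tnmd -1.84, adjusted p 0.0965) and in the fit to the 6 libraries (Tnmd -1.83, adjusted p 0.0409). Without moderation 0 of the 4 were called (Thbs4 -2.05, adjusted p 0.134), as were 0 of all 18714 genes. With each library left out the count was 1 to 2, being 2 without any one base library, and Tnmd ranged from -2.01 to -1.66 (adjusted p 0.0409 to 0.516 over all alternatives) and Thbs4 from -2.20 to -1.93. Against the base, leaving out a library gave counts of 1 to 2, being 2 without any one base library or MCAGF8 replicate 2, with Scx from -1.36 to -0.70, Tnmd from 0.31 to 1.17 and Mkx from 0.37 to 0.81. Between the controls, 2 genes were called and 0 in the fit to the 6 libraries (Tnmd -2.52, Mkx -1.37) or without moderation (Tnmd -2.52, adjusted p 0.105, and Mkx -1.37, adjusted p 0.107). Leaving out a library gave 1 to 2, being 1 without any one control vault library, with Tnmd from -3.00 to -2.14 and Mkx from -1.62 to -1.19. The direction and the side of the threshold held under all 17 alternatives for Scx and Mkx between the vaults, Thbs4 against the base, and Scx and Thbs4 between the controls, and no difference of the 4 genes changed sign. The cause of the other changes was not tested. Leaving out base replicate 2 also raised the number of all genes called. It went from 113 to 273 between the vaults, from 1571 to 4561 against the base and from 573 to 1335 between the controls.

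The sign turned for 4 genes among uncalled genes between the vaults: Egr1 was 0.0020 after rescaling, Col1a2 0.15 after quantile normalization, Tnc 0.029 and 0.037 and Thbs2 0.082 and 0.083 after quantile normalization and rescaling. With the replicate number as a block the counts of the 4 genes called were 1, 1 and 2, with Thbs4 at -2.05 (adjusted p 0.085) between the vaults and -2.82 (adjusted p 0.00856) against the base, and the tendon matrix count between the controls was 6 in place of 14. Over all alternatives that count was 3 to 16, that of the regulators 1 to 5, and that of the junction genes against the base 0 to 5. Deviations from the group means correlated at -0.549 to 0.370 between libraries of different groups with the same number. Between those with different numbers they correlated at -0.482 to 0.563. With 3 libraries per group, these values cannot settle whether the numbers pair the samples. With 3 pools per group and unknown depth, small differences such as that of Scx cannot be resolved.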
